A study of Mus musculus with 2 samples.

Results

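The 9 RNAs described here are small, folded, noncoding RNAs that carry no poly(A) tail: the pair Rn7s1 and Rn7s2, Rn7sk, Rpph1, Rmrp, Terc, Rny1, Rny3 and Vaultrc5. They were chosen by name, from the mouse symbols paired with the gene identifiers of the deposited tables, and make up 9 of 43346 annotated genes. All 9 had a row in both tables, each with 1 transcript. Total RNA came from the hindbrain of B6NCrl mouse embryos, sexes mixed, at 10.5 days of development. The series held 1 group of 2 libraries, made from pools of 69 embryos (replicate 1) and 51 embryos (replicate 2), each from 10 ng of RNA with spike-ins. The labels give the RNA a size range above 200 nucleotides and give both pools the same donor ID. With 1 group there was no comparison between conditions, so values are given for each library and the spread is that between these 2 pools, which may be technical.

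Most of these RNAs are made by RNA polymerase III, which transcribes short genes of high output; Terc is the exception and is a product of RNA polymerase II. Each works as the core of a particle with proteins. The Rn7s genes encode the RNA of the signal recognition particle (SRP), which brings ribosomes that make secreted proteins to the endoplasmic reticulum. Rn7sk encodes 7SK RNA, which holds the transcription elongation kinase P-TEFb inactive. Rpph1 is the catalytic RNA of ribonuclease P, which trims the front end of tRNAs, and Rmrp is the RNA of the related ribonuclease MRP, which acts on ribosomal RNA precursors. Terc is the template of telomerase. Rny1 and Rny3 are Y RNAs, bound by the Ro and La proteins, and Vaultrc5 is a vault RNA.

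The sequences differ in what the tables could measure of them, and are shown for that reason, from GENCODE M21 transcripts on assembly mm10, in DNA letters, 5′ to 3′. TPM, an abundance that sums to the same total in every library, divides the counts by an effective length, which for these RNAs was the annotated length minus 99 bases: the number of places where a stretch of 100 bases can begin. In the sequences of the Y RNAs the capitals mark these places. The TPM total includes the spike-ins, which held 13.031% of it in replicate 1 and 7.8206% in replicate 2. A smaller share was thus left for genes in replicate 1, and TPM gaps and SDs between the pools include this difference. Rny3 lies at chr6:47781624-47781725 on the plus strand and Rny1 at chr6:47788069-47788180 on the minus strand.
Rny3: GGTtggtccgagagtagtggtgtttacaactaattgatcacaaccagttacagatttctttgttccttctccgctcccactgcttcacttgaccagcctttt
Rny1: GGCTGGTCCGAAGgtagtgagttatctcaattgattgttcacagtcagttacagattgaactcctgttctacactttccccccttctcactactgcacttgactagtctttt
The capitals cover 13 of the 112 bases of Rny1 and 3 of the 102 bases of Rny3. For the SRP RNA the effective length was 201 of 300 bases. Rn7s1 and Rn7s2, on opposite strands of chromosome 12, were identical in 300 of 300 bases.

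The RNA of the signal recognition particle was by far the most abundant of the 9. Rn7s1 had 21920.83 expected counts in replicate 1 and 21579.15 in replicate 2, and Rn7s2 had 21922.98 and 21579.15. An expected count is an estimate in which reads that match several genes are divided between them, and between these identical copies the tables divided them almost evenly. Each copy stood at 4035 TPM in replicate 1, against 4430 in replicate 2. The deposited posterior SD of the count, the tables' own measure of this ambiguity, was 9468 for Rn7s1 in replicate 1 and 7980 in replicate 2, which is 40.4% and 33.3% of its posterior mean count. The tables thus give no separate level for either copy. GENCODE M21 also places the miRNA gene Gm47287 inside Rn7s1 and Gm47305 inside Rn7s2. The miRNA genes Gm47295 and Gm47299 share 77 bases with Rn7s1 and Rn7s2, respectively, and each extends past an end of that gene. These miRNA genes have no row in the deposited tables.

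Their sum did not depend on that division. Together the pair had 43844 counts in replicate 1 and 43158 in replicate 2, and the sums of the posterior mean counts were 43843 and 43157. In TPM the sum was 8070 in replicate 1 and 8859 in replicate 2, a mean of 8465 ± 558 TPM (SD, n = 2). No annotated gene had a higher TPM than this sum in either library (rank 1 in both). This rank rests on the effective length, and was not computed per full length. Taken singly, each copy ranked 10 or 11 by TPM in replicate 1 and 10 in replicate 2. By counts, which are not divided by length, each ranked 162 or 163 in replicate 1 and 165 in replicate 2. The pair held 98.0% of the counts of the 9 RNAs in replicate 1 and 98.2% in replicate 2, and 0.115% and 0.119% of the counts of all annotated genes.

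Other genes that resemble the SRP RNA took few counts. Besides Rn7s2, 7 annotated genes matched Rn7s1 at 85% identity or more over at least 60% of its length. Together they had 21.19 counts in replicate 1 and 27.7 in replicate 2, which is 0.0967% and 0.128% of the counts of Rn7s1. The closest in identity was Rn7s6, 98.6% identical over the first 214 bases, with 9.13 counts in replicate 1 and 18.65 in replicate 2. Gm24105, 91.7% identical over 299 bases, had no count in either library.

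7SK RNA came next. Rn7sk (chr9:78175303-78175633, minus strand) had 705 counts in replicate 1 and 546 in replicate 2, at 112 and 97.1 TPM, a mean of 105 ± 10.8 TPM (SD, n = 2). The exact 95% Poisson interval, which covers counting error only here and below, was 104 to 121 TPM in replicate 1 and 89.1 to 106 TPM in replicate 2. The summed TPM of the SRP pair was 71.8 times that of Rn7sk in replicate 1 and 91.2 times in replicate 2.

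The 7SK gene has many annotated relatives, yet its count was nearly free of ambiguity. A total of 19 other genes in the tables matched it at 85% identity or more over at least 60% of its length, and Gm24447 matched its first 241 bases without a difference. The stretch from base 201 to the end is shown with capitals from base 242, where that match ends.
Rn7sk: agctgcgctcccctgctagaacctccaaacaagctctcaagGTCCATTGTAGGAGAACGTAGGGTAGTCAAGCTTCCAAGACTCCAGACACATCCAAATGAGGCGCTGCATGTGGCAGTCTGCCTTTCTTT
Gm24447 was listed at 0 counts in both libraries, and all 19 relatives together had 5 counts in replicate 1 and 8 in replicate 2. The deposited posterior SD of the Rn7sk count was 5.5 in replicate 1 and 4.49 in replicate 2, or 0.788% and 0.831% of its posterior mean, against the 40.4% and 33.3% of Rn7s1.

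The RNAs of the related ribonucleases P and MRP stood far apart. Rpph1 (chr14:50807449-50807767, minus strand) had 185 counts in replicate 1 and 211 in replicate 2, at 31.1 and 39.6 TPM, a mean of 35.3 ± 5.98 TPM. Rmrp (chr4:43492788-43493058, minus strand) had 11.71 and 9.56 counts, at 2.52 and 2.29 TPM, a mean of 2.41 ± 0.163 TPM (SD, n = 2 each). In TPM, Rpph1 was 12.3 times Rmrp in replicate 1 and 17.3 times in replicate 2. Their Poisson intervals did not overlap, at 26.8 to 35.9 TPM and 34.4 to 45.3 TPM for Rpph1, and 1.29 to 4.43 TPM and 1.08 to 4.27 TPM for Rmrp.

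Other annotated genes overlap both. An exon of Ccdc107, on the opposite strand, covers 124 of the 271 bases of Rmrp. Whether counting used strand is not given in the sources used here. Ccdc107 had 777.29 and 661.44 counts in replicates 1 and 2, of which that transcript had 7.35 and 10.06. The fractions of the Rmrp and Ccdc107 counts complement each other in each library, so some reads were divided between the 2 genes. The posterior SD of the Rmrp count was 0.52 in replicate 1 and 0.61 in replicate 2, or 4.45% and 6.39% of its posterior mean. Rpph1 shares 233 bases with a Ccnb1ip1 transcript of GENCODE M21 that is not among the transcripts of the deposited tables, and Ccnb1ip1 was listed at 0 counts in both libraries. A lincRNA gene of M21 that is also named Rmrp covers all of the Rmrp RNA and has no row in the deposited tables. The posterior SD of Rpph1 was 0 in both libraries.

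Telomerase RNA was close to the limit of counting. Terc (chr3:96414437-96414859, minus strand) had 5 counts in replicate 1 and 4 in replicate 2, at 0.57 and 0.51 TPM, a mean of 0.540 ± 0.0424 TPM (SD, n = 2). Its Poisson intervals were 0.185 to 1.33 TPM and 0.139 to 1.30 TPM, so its small SD says less than the counts do. The first 80 bases of its annotated transcript follow, with CTAACCC, found by a search of the annotated strand, in capitals at bases 29 to 35. This is the part of the template that is copied into telomere repeats. Whether the RNA itself starts at the annotated first base was not tested.
Terc: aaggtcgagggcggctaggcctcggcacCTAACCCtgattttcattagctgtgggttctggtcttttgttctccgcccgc
Terc had the longest annotated RNA of the 9, at 423 bases, and 1 count was worth only 0.114 TPM in replicate 1. Its low TPM thus rested on few counts over a long target, whereas those of the shorter RNAs rested on few counts over a short one.

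The 3 RNAs shorter than 200 bases were barely counted. Vaultrc5, on chromosome 18 and 143 bases long, had 4 counts in replicate 1 and 1 in replicate 2, at 3.36 and 0.94 TPM. Rny1 had 0 counts in replicate 1 and 2 in replicate 2, at 0 and 6.35 TPM. Rny3 had 0 counts in both libraries. In TPM the 2 counts of Rny1 stood above the 9.56 counts of Rmrp in the same library, because 1 count of Rny1 was worth 3.17 TPM there and 1 count of Rmrp 0.240 TPM.

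**Figure D1:**
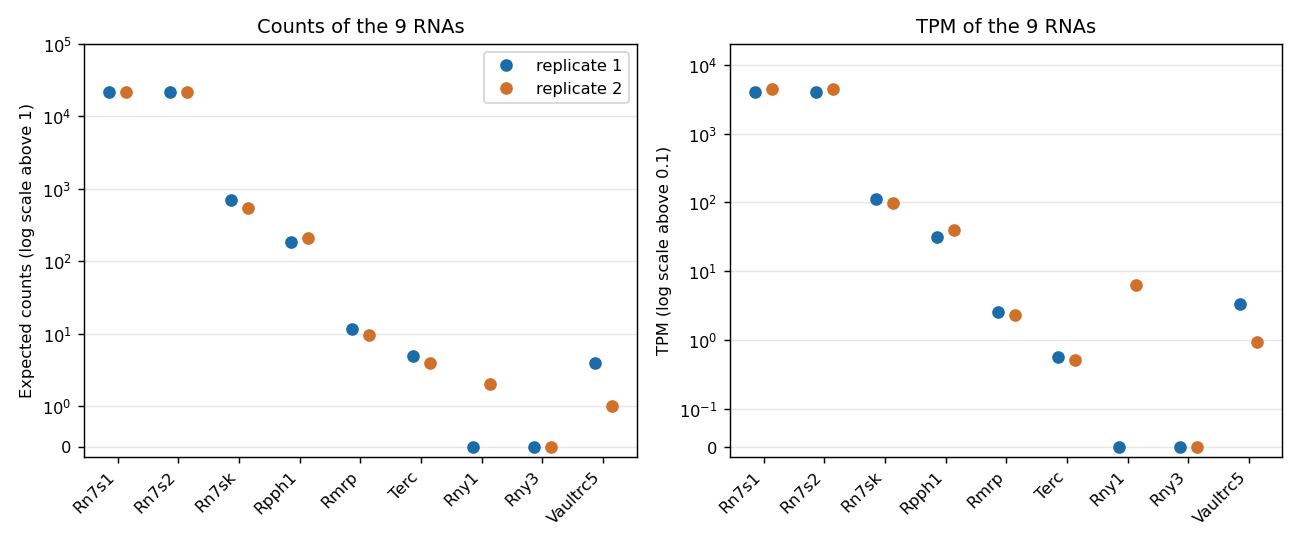
Expected counts (left) and TPM (right) of the 9 RNAs in replicate 1 (blue) and replicate 2 (orange), on axes that are linear near 0 and logarithmic above. Both panels fall from the SRP pair (21579.15 to 21922.98 counts per copy) to Terc (5 and 4 counts), and relative to Rmrp the order differs between the panels for Rny1 in replicate 2 and for Vaultrc5 in replicate 1.

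A count of 0 left wide room for Rny3 and less for Rny1. A floor of 3 counts per library corresponds to 37.0 TPM in replicate 1 and 41.3 TPM in replicate 2 for Rny3, and to 8.54 and 9.52 TPM for Rny1. For Rny3 that floor lies above the measured level of Rpph1 in each library. A level of Rny3 equal in TPM to that of ribonuclease P RNA would thus lie under this chosen floor. It would lie above the 12.3 and 13.8 TPM of 1 count in replicates 1 and 2, and whether it would have been seen was not tested. For Rny1 the floor lies below the level of Rpph1 in each library. For Rn7sk the same 3 counts correspond to 0.478 and 0.534 TPM.

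**Figure D2:**
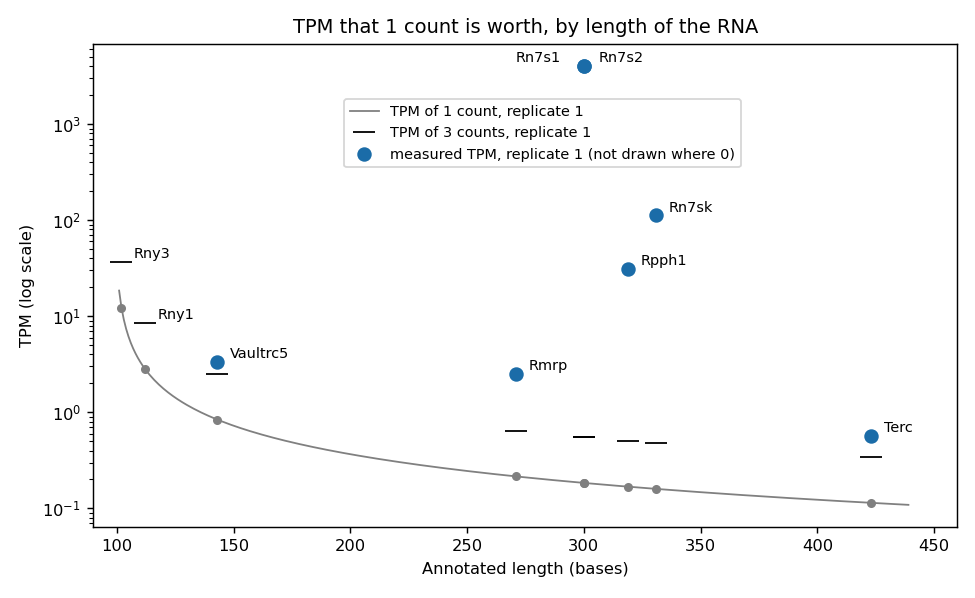
TPM on a log axis against annotated length in replicate 1, with the TPM of 1 count (grey line), of 3 counts (black bars) and the measured TPM of each RNA (blue, not drawn for Rny1 and Rny3 at 0). One count is worth 12.3 TPM for Rny3 and 0.114 TPM for Terc, and Vaultrc5 at 3.36 TPM lies just above its 3-count level of 2.52 TPM.

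By counting error alone, the order of the levels was therefore clear at the top only. Differences in capture between the RNAs were not tested. In both libraries the SRP pair, Rn7sk, Rpph1 and Rmrp followed each other in TPM without overlap of their Poisson intervals. Below that the neighbours did not separate: the intervals of Rmrp and Terc overlapped, and those of Vaultrc5 (0.916 to 8.61 TPM in replicate 1, 0.0237 to 5.22 TPM in replicate 2) overlapped both. The interval of Rny1 reached 22.9 TPM in replicate 2 and that of Rny3 50.7 TPM, which is above the interval of Rpph1.

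At a threshold of 1 TPM in each library, 5 of the 9 RNAs were detected: Rn7s1, Rn7s2, Rn7sk, Rpph1 and Rmrp. The same rule was met by 33.0% of all annotated genes. It was met by 3.13% of 3836 other genes of the classes misc_RNA, ribozyme, snRNA, snoRNA, scaRNA and rRNA. With posterior mean TPM, which adds a prior to each RNA, the number became 8, including Rny3 at 12.1 and 13.4 TPM with no count.

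Other small RNAs were also counted little, and the share with counts differed by length. Of 750 of the other genes with up to 99 bases none had a count in both libraries, which follows from an effective length of 0. Counts in both libraries were seen in 5.23% of 2659 genes of 100 to 199 bases, in 15.3% of 268 genes of 200 to 299 bases and in 9.43% of 159 genes of 300 bases or more. A count of at least 10 in both was seen in 0.376%, 3.36% and 2.52% of these. Among the 9 RNAs, 4 of the 6 longer than 200 bases had at least 10 counts in both, and none of the 3 shorter ones.

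**Figure D3:**
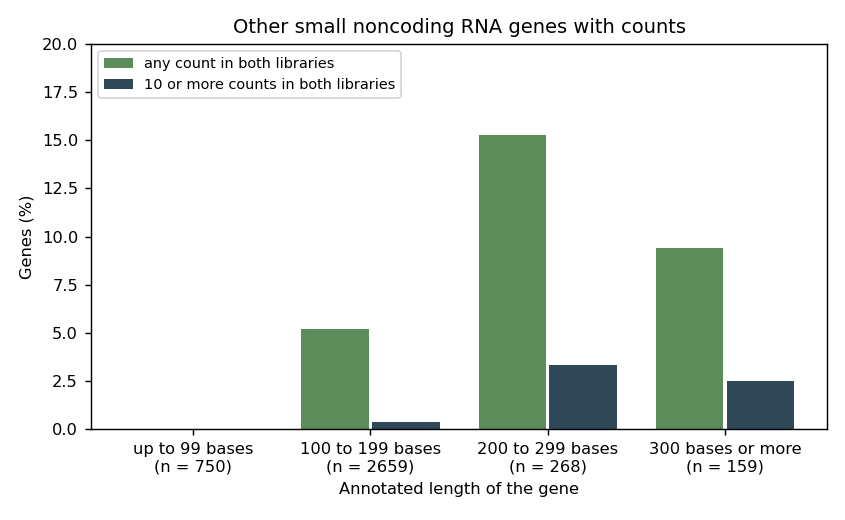
Share of the other 3836 small noncoding RNA genes with any count (green) and with 10 or more counts (dark) in both libraries, by annotated length, with the number of genes under each group. The share with any count is 0 up to 99 bases, 5.23% at 100 to 199 bases, 15.3% at 200 to 299 bases and 9.43% at 300 bases or more.

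Within their annotated class the SRP pair dominated. The misc_RNA class had 562 genes, and Rn7s1 and Rn7s2 held 97.2% of its counts in replicate 1 and 97.6% in replicate 2. Outside the 9 RNAs, the highest of that class by counts was Gm27640 with 62.84 and 67.28 counts, followed by RF01953 with 57 and 43. In the ribozyme class no gene other than Rpph1 and Rmrp had a count in both libraries, and Gm25694, the highest of the rest, had 0 and 2, while Gm22714 had none. The highest snRNA gene was Gm23887 (22 and 12 counts), with Gm25184 (11.07 and 21.88) after it. The highest snoRNA genes were Snora43 (331.66 and 362.14 counts) and Snora68 (25 and 25), and the highest scaRNA genes Scarna13 (33 and 17) and Scarna2 (11 and 15), in replicates 1 and 2. Snora43 has a mean transcript length of 1361 bases in the tables, so its counts need not come from the small RNA.

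Both libraries held the genes of the labelled tissue, and marker levels differed between the pools. Annotated genes had 38170090 expected counts in replicate 1 and 36382245 in replicate 2. All 6 hindbrain markers, among them Hoxa2, Irx3 and Gbx2, reached 1 TPM in both, as did all 8 neuronal, 7 red blood cell, 5 endothelial and 6 mesenchymal markers; RNA of other cells was thus in both pools. In counts scaled by TMM, which centres the ratios of most genes, the log2 ratio of replicate 1 over replicate 2 had a median of 0.77 for the neuronal markers (8 of 8 higher in replicate 1), 0.53 for the hindbrain markers (6 of 6) and -0.36 for the cell cycle genes (6 of 6 higher in replicate 2). Mesenchymal markers had a median of 0.21 (6 of 6 higher in replicate 1) and neuroepithelial markers 0.17 (5 of 6). Red blood cell and endothelial markers had medians of -0.09 and -0.10, with 2 of each higher in replicate 1. All filtered genes, at a median of -0.01, were split almost evenly between the directions. Under spike-in scaling, where all filtered genes had a median of -0.82, the neuronal, hindbrain and cell cycle medians were -0.03, -0.28 and -1.17. In bulk tissue fewer cells of a type and less RNA per cell cannot be told apart. Each side of a ratio is 1 library, so no ratio here carries a replicate check or a p-value.

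The 4 RNAs with enough counts for a ratio differed little between the 2 pools. Rn7s1, Rn7s2, Rn7sk and Rpph1 reached 1 CPM, a count adjusted for library size, in each library, and the other 5 did not. The log2 ratio of replicate 1 over replicate 2, in TMM-scaled counts, was -0.07 for each SRP gene, 0.28 for Rn7sk and -0.28 for Rpph1. The median over the 4, of which the identical SRP genes are 2, was -0.07, beside -0.01 over all 14385 genes that passed the same filter. With the SRP pair counted as 1 RNA, an alternative chosen after seeing the data, the median was also -0.07. None of the 4 was 2-fold apart between the pools, which 4.34% of all filtered genes were, 3.48% higher in replicate 1 and 0.862% higher in replicate 2. The ratio of the SRP pair had a counting interval of -0.09 to -0.05, that of Rn7sk one of 0.11 to 0.44, and that of Rpph1 one of -0.57 to 0.01.

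The ratio of Rn7sk to Rpph1 within a library, which needs no scaling, differed between the pools. In TPM, Rn7sk was 3.61 times Rpph1 in replicate 1 and 2.45 times in replicate 2, a log2 shift of 0.56 with an exact counting interval of 0.22 to 0.90. That interval holds no variation between pools or libraries, which 1 library of each pool cannot give. The pair was not a planned result. It joins the highest and the lowest ratio of the RNAs that passed the filter, which the interval does not allow for. For Rpph1 to Rmrp the shift was -0.45 (-1.86 to 0.92), and for Rn7sk to Rmrp 0.11 (-1.28 to 1.45). A total of 61.1% of all filtered genes had a smaller ratio in size than Rn7sk, and 61.6% a smaller one than Rpph1. The neuronal and cell cycle markers differed between the pools as well, by medians of 0.77 and -0.36. Their part in the shift of Rn7sk to Rpph1 was not tested.

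**Figure D4:**
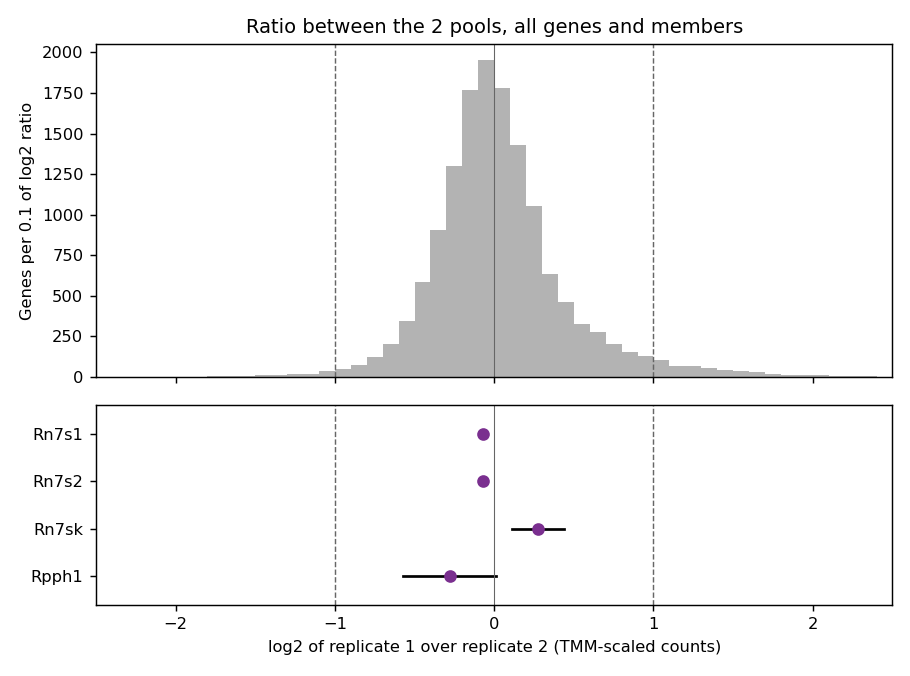
Distribution of the log2 ratio of replicate 1 over replicate 2 for 14385 genes (top) and the ratios of the 4 RNAs that passed the filter with their exact 95% counting intervals (bottom); dashed lines mark 2-fold, and genes beyond the ends of the axis are not drawn. All 4 points, from -0.28 for Rpph1 to 0.28 for Rn7sk, lie within the bulk of the genes. The intervals drawn for Rn7s1 and Rn7s2 leave out the ambiguity in how reads were divided between these identical copies.

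With spike-in scaling the RNAs moved with the median of all genes at -0.82, to -0.88 for each SRP gene, -0.53 for Rn7sk and -1.08 for Rpph1. The direction of Rn7sk thus depends on the scale.

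The mRNAs of the proteins that bind, process or transcribe these RNAs were all detected. Of 68 listed genes 66 were found by symbol, and all 66 reached 1 TPM in each library, a rule met by 58.8% of protein-coding genes. Srp54b and Gtf3c2 were not analysed here. The median of the 66 was 43.9 TPM, against 16.8 TPM for the 14291 annotated genes at 1 TPM or more in both.

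The proteins of the signal recognition particle were led by Srp14, which binds the Alu domain of the RNA, at 246 ± 10.7 TPM. Srp19, which helps the particle assemble, was at 168 ± 25.4 TPM, and the lowest of the 7 was Srp72 at 58.3 ± 5.61 TPM. Srp54a and Srp54c, similar copies of the subunit that binds signal sequences, were at 60.1 ± 15.5 and 59.5 ± 6.38 TPM, and reads could be split between them. The receptor subunits Srpra and Srprb were at 65.2 ± 5.73 and 54.2 ± 6.55 TPM (SD, n = 2 for each gene here and below).

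Ribonucleases P and MRP share most of their proteins. Of 11 genes the highest were Pop4 at 109 ± 3.66 TPM and Pop5, with 83.3 TPM in replicate 1 and 96.7 in replicate 2. The lowest was Rpp25 at 4.995 ± 3.92 TPM, from 7.77 TPM in replicate 1 and 2.22 in replicate 2. With a log2 ratio of 1.85 in TMM-scaled counts it was the 1 gene of the partner lists at least 2-fold apart between the pools, beside the 3.48% of all filtered genes. Its paralog Rpp25l had 71.7 TPM in replicate 1 and 81.5 in replicate 2. Of the 8 neuronal markers 3 were at least 2-fold higher in replicate 1 too, and their part in the value of Rpp25 was not tested.

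The telomerase list held both abundant and scarce mRNAs. The highest were Nhp2 at 189 ± 31.2 TPM and Nop10 at 159 ± 23.2 TPM, which telomerase shares with the particles that modify ribosomal RNA. The reverse transcriptase Tert, the catalytic subunit, had 3.59 TPM in replicate 1 and 4.18 in replicate 2, and the lowest was the assembly factor Naf1 at 2.60 ± 0.849 TPM. Dyskerin (Dkc1), which binds Terc, had 85.4 TPM in replicate 1 and 178 in replicate 2, more than 2-fold apart; in TMM-scaled counts its log2 ratio was -0.81, which is under 2-fold. Terc itself, at 5 and 4 counts, could not be compared between the pools: its counting interval ran from -1.99 to 2.56 (log2).

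The kinase that 7SK RNA restrains stood above its inhibitors. Cdk9 had 96.9 TPM in replicate 1 and 105 in replicate 2, with Ccnt2 at 74.6 ± 12.2 TPM and Ccnt1 at 45.4 ± 4.38 TPM; the cyclins T are partners of Cdk9 in P-TEFb. Larp7, which binds the end of 7SK RNA, had 33.4 TPM in replicate 1 and 51.2 in replicate 2. Mepce, which caps it, was at 10.2 ± 0.693 TPM. The inhibitors were low: Hexim1 was the lowest of the list at 1.65 ± 0.368 TPM, and Hexim2 was at 6.75 ± 0.445 TPM.

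The partners of the Y RNAs stood above those of the vault RNA. Ssb, the La protein that binds the ends of new polymerase III transcripts, had 171 TPM in replicate 1 and 297 in replicate 2, and Ro60 at 21.0 and 27.9 TPM. The vault proteins were the lowest list, with a median of 1.80 TPM: the major vault protein Mvp was at 3.50 ± 0.120 TPM, Tep1 at 1.80 ± 0.198 TPM and Parp4 at 1.53 ± 0.276 TPM. Vaultrc5, on 4 and 1 counts with wide Poisson intervals, cannot be set beside these levels. Rny1, at 0 and 2 counts, and Rny3, at 0 in both libraries, were counted as little although Ssb was high.

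**Figure D5:**
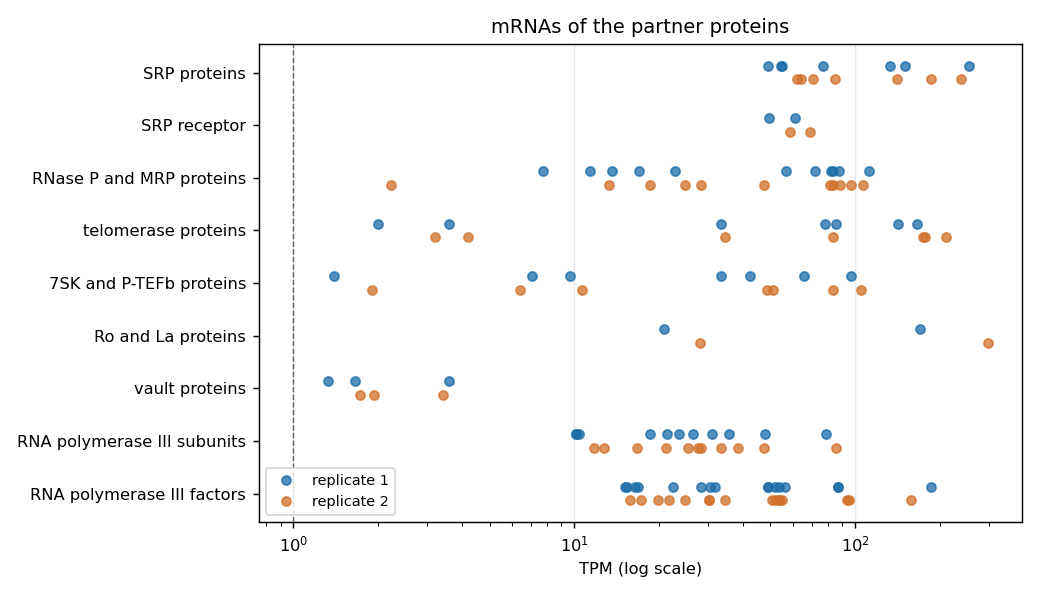
TPM on a log axis of the 66 mRNAs of the partner lists in replicate 1 (blue) and replicate 2 (orange), 1 point per gene and library; the dashed line marks 1 TPM. The vault proteins lie between 1.33 and 3.58 TPM, and the SRP proteins between 49.1 and 254 TPM.

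The genes of RNA polymerase III and its factors were all detected. The 11 subunit genes had a median of 24.6 TPM, from Polr3a, the largest subunit, at 10.9 ± 1.15 TPM to Polr3k at 82.4 ± 4.87 TPM, with Crcp next at 47.4 ± 0.255 TPM. The alternative subunits Polr3g and Polr3gl, of which a polymerase holds either, differed in level: Polr3g had 10.4 TPM in replicate 1 and 16.7 in replicate 2, and Polr3gl 23.5 and 21.3. Among 16 factors the median was 41.3 TPM. The highest was Maf1, a repressor of the polymerase, at 173 ± 20.3 TPM, then Gtf3a, the factor of 5S RNA genes, at 91.2 ± 5.84 TPM, and the lowest was Brf2, which serves genes such as Rn7sk with promoters upstream of the start, at 16.1 ± 0.495 TPM. Over all 66 partner genes the median log2 ratio of replicate 1 over replicate 2 was -0.08, beside -0.01 over all filtered genes. Of the 66, 48 were higher in replicate 2 and 18 in replicate 1, whereas all filtered genes were split almost evenly. Under spike-in scaling the partner median was -0.89, beside -0.82 over all filtered genes.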

How the data were processed

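Total RNA was measured in 2 libraries of 1 group. Per the labels, RNA was extracted with mirVana; the deposited notes name assembly mm10 and annotation M4. The aligner and the quantification program were not given in the sources used here. How RNAs without a poly(A) tail were captured is not described here, and its part in the levels was not tested. Per the file headers, the deposited gene and transcript tables hold an expected count, TPM and FPKM, with posterior means, SDs and bounds. Depth was 38170090 and 36382245 expected counts in annotated genes, without spike-ins and predicted tRNAs.

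Symbols came from GENCODE M21 for 42462 of 43346 genes. Transcript copies were found with BLAST 2.17.0 (same strand). Counts were rounded for ratios: edgeR 4.0.16 (R 4.3.3), TMM scaling, prior count of 2, CPM of at least 1 in both libraries; this was tested on simulated data. Intervals are exact (95%, Poisson or conditional binomial) and cover counting error only. No test was possible. Alternatives were FPKM, posterior means, other thresholds, full length, DESeq2 1.42.0 size factors, total and spike-in scaling, prior counts, pseudocounts of 0.1 and 1 on log2(TPM), no filter and each library left out.

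Genes named were the 9 RNAs, overlapping genes, transcripts at least 90% identical over 80% of an RNA, the 2 highest and the lowest of each partner list, partners 2-fold apart, and the 2 highest by counts of the misc_RNA, ribozyme, snRNA, snoRNA and scaRNA classes. Wider copies (85% over 60%) and further partners were named after their values were seen. The members and lists were chosen with earlier results of these data known. One sequence is not reported here. Calculations used Python 3.11.15, pandas 2.3.3, numpy 2.4.6, scipy 1.17.1 and matplotlib 3.10.9.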

Additional observations from a re-analysis of the deposited data

How the results depend on the processing

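The number of the 9 RNAs detected, 5 at a TPM of at least 1, was 5 in FPKM, 7 at 0.5 TPM, 4 at 10 counts, 8 in posterior mean TPM and 6 with either library alone; with the SRP pair counted as 1 RNA, an alternative chosen after seeing the data, it was 4. The partner count stayed between 64 and 66 of 66. The summed TPM of the 9, 8613, was 8220 to 9006 with either library alone, 8437 in posterior means, 6442 per full length, 9611 over annotated genes only and 148 without the SRP pair. The median pool ratio of the 4 RNAs lay between -0.135 and -0.046 except under spike-in scaling (-0.875), where 1 of them, Rpph1, passed 2-fold. With no filter the median over all 9 was 0, and 1 of 9, Rny1 on 2 counts, passed 2-fold. Genes 2-fold apart numbered 624, and 3818 under spike-in scaling, 317 on log2(TPM + 1) and 3257 with no filter. No paired analysis was possible because there was 1 group only. Terc, Vaultrc5, Rny1 and Rny3 had at most 5 counts in either library, which limits the precision of their levels. The parts of depth, effective length, size selection and capture of RNAs without a poly(A) tail in these low counts were not tested.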

Other observations

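Predicted tRNA genes and the rRNA class had few counts. The 26248 predicted tRNA rows together had 38 counts in replicate 1 and 30.76 in replicate 2, and 99.8% of them had an effective length of 0. Of these rows 6 had a count in both libraries, and 1 had at least 10 in both. The rRNA class, 353 genes with a median length of 116 bases, had 21.83 and 29.44 counts, and 4 of its genes had a count in both libraries.

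The copies of Rny1 and Vaultrc5 closest in sequence had no counts. Gm26168 and Gm26124, 92.7% and 90.5% identical to Rny1, and Gm25403, 91.5% identical to Vaultrc5, were at 0 counts in both libraries.

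The GC content of the 9 annotated RNAs ran from 43.8% in Rny1 and 45.1% in Rny3 to 67.1% in both Rpph1 and Terc, with 62.3% in the SRP pair; the 2 Y RNAs were both the shortest and the lowest in GC content, so length and base composition cannot be told apart among them.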
